A study of Mus musculus with 15 samples.

Results

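The genes described here are 37 enzymes and enzyme subunits listed for the breakdown of amino acids in the liver. They were chosen by symbol from known pathways, with earlier results of these data known. They comprise 5 genes of tyrosine breakdown, 6 of tryptophan, 8 of glyoxylate, glycine and serine, 4 of proline and ornithine, 1 of lysine, 6 of the branched chain amino acids, 3 general transaminases and 4 of histidine. The group of 8 includes Agxt2l1, which encodes a lyase of phosphoethanolamine and not an enzyme of amino acid breakdown. All 37 were found among the 20325 genes listed in each library, and all 37 passed the filter on low counts that left 12377 genes for testing. The data were RNA-seq profiles of whole liver from 15 male C57BL/6J mice aged 19 weeks, 3 mice in each of 5 groups, with total expected counts of 14737578 to 21794811 per library.

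The groups were conventionally raised mice (ConvR, with a microbiota acquired from birth) on a high-fat high-sucrose diet (HF/HS), germ-free mice (GF, with no microbiota) on HF/HS, conventionalized mice (ConvD, born germ-free) on chow, ConvR mice on chow and GF mice on chow. ConvD mice received cecal contents of ConvR donors by a single gavage at 15 weeks and were sampled 4 weeks later, so that they differ from ConvR mice in the age at colonization and in its duration. The diets began after 3 weeks of age, and HF/HS supplied 44.6% of energy as fat, 40.6% as carbohydrate and 14.8% as protein, against 23.7%, 53.2% and 23.1% in chow. Mice were housed by colonization status and diet, and ConvR and GF mice lived in separate isolators, so that housing cannot be told apart from group. ConvD mice on HF/HS were not analysed here.

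The liver is the main site of breakdown for most amino acids. Nitrogen is passed by transaminases to glutamate, alanine and aspartate on its way to urea, while the carbon skeletons enter glycolysis, the citric acid cycle or ketone body synthesis. Several of these enzymes, among them tyrosine aminotransferase and serine dehydratase, are known to be induced by glucagon, glucocorticoids and dietary protein, and the branched chain amino acids are an exception in that their first transamination takes place mostly outside the liver.

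Several libraries stood apart within their own group. ConvR chow 1 and ConvR chow 2 had 94810 and 123200 CPM (counts scaled to a common library total) summed over 17 acute phase genes, which encode plasma proteins of inflammation, against 23460 CPM in ConvR chow 3 and 18430 to 26750 CPM in the other 12 livers. In these same 2 livers the hepatocyte markers, 7 of 8 listed being in the files, summed to 50850 and 45360 CPM, against 80030 to 121700 CPM in the other 13. Most of that sum was Alb, at 36340 and 31500 CPM against 61670 to 98640 CPM. The markers differed in direction: Ttr, Fabp1 and Apoc3 were also lowest in these 2 livers, Hnf4a was highest in them, at 709 and 761 CPM against 519.8 to 697 CPM, and Cps1 and Apoa1 lay within the range of the other 13. Markers of exocrine pancreas and kidney summed to at most 0.41 and 0.14 CPM in any liver. A list of 3 neutrophil genes summed to 16.4 and 27.6 CPM in the same 2 livers and to 0.70 to 6.33 CPM elsewhere. Nearly all of it in the 2 livers was S100a8, at 6.87 and 10.7 CPM, and S100a9, at 9.35 and 16.8 CPM. The third gene, Mpo, was at 0.165 and 0 CPM in them. An adipocyte list of 3 genes summed to 26.4, 69.5 and 9.01 CPM in ConvR HF/HS livers and to 0.72 to 3.60 CPM elsewhere, all of it Cidec in ConvR HF/HS livers, where Adipoq and Plin1 were at 0. GF chow 1 had 8475 CPM over 9 genes of the fasting and glucagon response, against 828 to 4820 CPM in the other 14 livers. Pck1 alone made up 5457 CPM of it, and Pck1, G6pc, Igfbp1 and Irs2 were highest in this liver. The rest of the list, Ppargc1a, Fgf21, Angptl4, Cpt1a and Pdk4, lay within the range of the other 14. GF chow 1 also had 1829 CPM over 14 immediate early genes, against 93.2 to 519 CPM. The part of these differences in the results below was not tested. In whole liver, fewer cells of a type and less RNA per cell cannot be told apart.

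By TPM, which is scaled for gene length and so allows genes to be compared, the members' levels spanned from a mean of 1956 TPM for Hpd to 9.39 TPM for Sdsl over the 15 livers. Hpd ranked 61 among all genes, followed among the members by Tdo2 at 1287 TPM and Tat at 1181 TPM, the entry enzymes of tryptophan and tyrosine breakdown. Acmsd, at 12.5 TPM, was the other member under 30 TPM. All later levels are CPM scaled by TMM factors, which suit comparison of one gene between livers. Within groups, Agxt2l1 and Tat varied most, with pooled standard deviations of 0.68 and 0.59 on the log2(CPM + 1) scale, and Haao and Bckdha least, with 0.10 and 0.09. Summed over the 37 genes, the members made up 13860, 10990 and 10630 CPM in ConvR HF/HS, 13120, 14600 and 14230 CPM in GF HF/HS, 12310, 13950 and 13280 CPM in ConvD chow, 11860, 10930 and 11620 CPM in ConvR chow and 16240, 13670 and 14520 CPM in GF chow livers. The 3 ConvR chow sums all lay below the 3 GF chow sums.

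**Figure D1:**
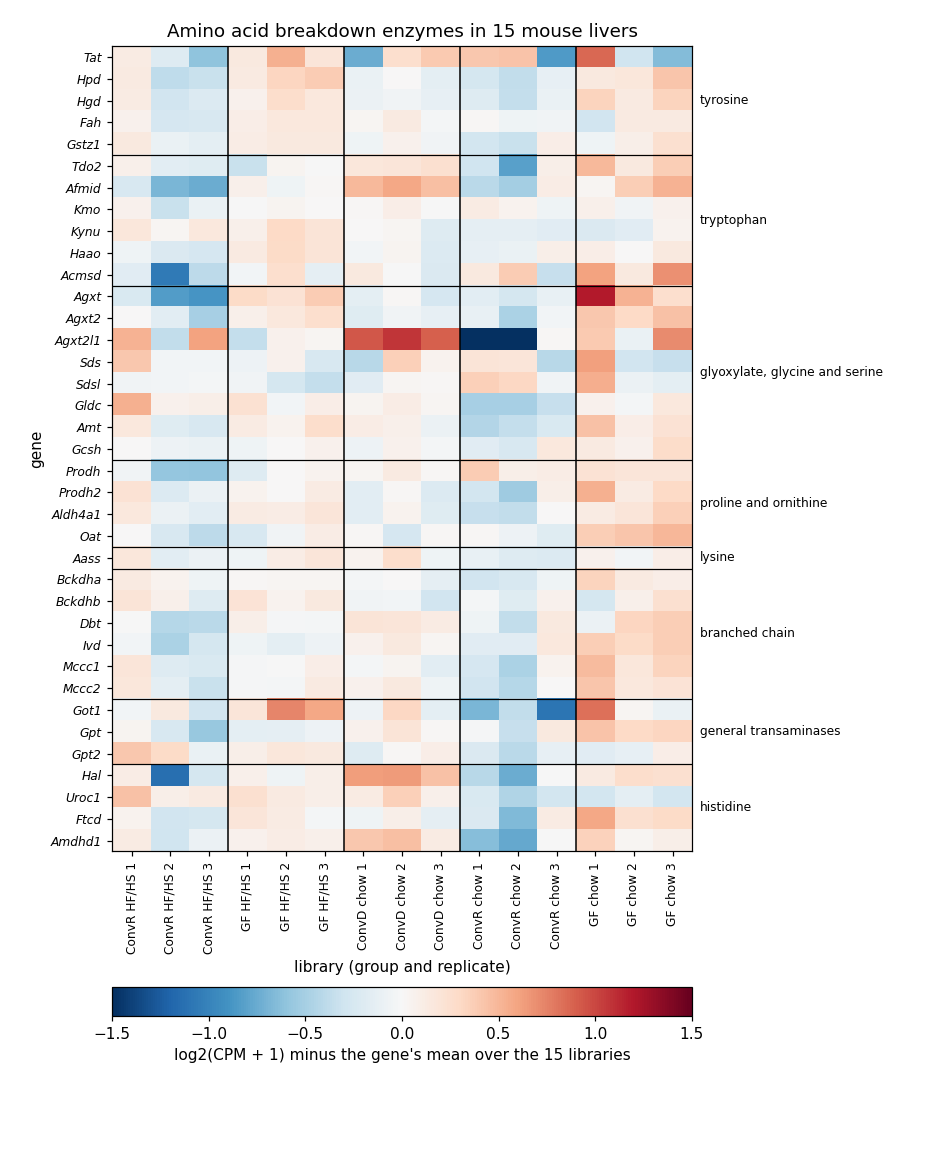
Heat map of the 37 members (rows, grouped by sub-pathway) in the 15 livers (columns); colour is log2(CPM + 1) minus the gene's mean over the 15 libraries, red above and blue below that mean, with values beyond 1.5 either way drawn in the end colours. ConvR chow 1 and 2 are blue in most rows, and Agxt2l1 is far below its mean in both, at 24.0 and 14.7 CPM.

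On chow, ConvR livers held less RNA of 9 amino acid breakdown genes than GF livers, and fewer genes passed the test on HF/HS. A gene was called where edgeR's two-sided quasi-likelihood F test gave a Benjamini-Hochberg adjusted p below 0.05 over all 12377 genes. On chow, 9 of the 37 members fell in ConvR livers relative to GF livers and 0 rose, that is 24.3% of members lower against 2.17% of all genes tested, and 0 higher against 2.55%. The members' median log2 fold change was -0.42, with 34 of 37 below 0, beside a median of -0.0033 over all genes tested. The 9 were Hgd, Agxt, Agxt2, Gldc, Amt, Oat, Bckdha, Mccc1 and Got1, from 5 of the 8 sub-pathways; 4 of them belong to the glyoxylate, glycine and serine group. No single call of the 9 held in every fit that left out 1 library: 0 of them remained once ConvR chow 1 or ConvR chow 2 was dropped, 1 once GF chow 1 was and 5 once GF chow 3 was. Without GF chow 2, 8 of the 9 calls remained, that of Oat ended and 1 other member was called, and without ConvR chow 3 the count was 22, the 9 among them. With ConvR chow 1 and 2 both left out, the median was -0.24 and 0 were called, and 0 were called when only these 2 groups entered the fit. Of the 9 fasting and glucagon genes 3 fell and 0 rose in the same contrast, with a median log2 fold change of -1.26. Markers of periportal hepatocytes, 7 genes that include Pck1 of the fasting list and Cps1 of the hepatocyte list, summed to 6714 to 8479 CPM in ConvR chow and 9061 to 14320 CPM in GF chow livers, without overlap, and 0 of the 7 were called. Markers of pericentral hepatocytes, 9 genes, summed to 7056 to 8241 CPM in ConvR chow and 8203 to 11270 CPM in GF chow livers, with overlap, and 0 of the 9 were called. On HF/HS, the pericentral and periportal sums were both lower in ConvR than in GF livers, without overlap. There 1 of the 9 pericentral genes fell and 0 of the 7 periportal genes did, with median log2 fold changes of -0.45 and -0.26. Averaged over both diets, 3 of the 9 and 1 of the 7 fell, with medians of -0.32 and -0.25, and 0 rose. The part of these lists in the results was not tested.

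On HF/HS, 1 member, Agxt, fell in ConvR livers relative to GF livers and 0 rose, against 0.735% of all genes lower and 0.881% higher. The count was 3 without ConvR HF/HS 1 and 0 without any 1 of the other 5 livers. It was 2 with the compared groups alone and 0 under library totals without TMM factors. The median of the members was -0.15, with 29 of 37 below 0, and it turned to 0.015 under library totals without TMM factors and 0.042 on log2(TPM + 1), both of which moved the median of all genes to 0.165. The chow and HF/HS contrasts share no livers: 27 of 37 members were below 0 in both, 1 was above 0 in both and 9 had opposite signs, while of all 12377 genes 30.9% were below 0 in both and 40.3% had opposite signs. Across the 37 genes the log2 fold changes on the 2 diets had a Pearson correlation of 0.13, which describes genes and not replicates. Averaged over both diets, 12 members fell in ConvR livers and 0 rose, 32.4% lower against 4.25% of all genes and 0 against 4.14% higher, and the median was -0.29. The 12 were Hpd, Hgd, Afmid, Haao, Agxt, Agxt2, Amt, Aldh4a1, Oat, Ivd, Got1 and Ftcd. Of these, 7 calls (Hpd, Hgd, Afmid, Agxt, Agxt2, Amt and Got1) held whichever library was left out. The count was 24 without ConvR chow 3, 19 without ConvR HF/HS 1, and 7 without any 1 of ConvR chow 1, ConvR chow 2, GF HF/HS 2, GF HF/HS 3, ConvR HF/HS 2 and ConvR HF/HS 3. It was 8 without GF chow 3 and 8 without GF HF/HS 1. Of all genes, 8.39% were called with all 15 livers, 14.7% without ConvR chow 3 and 6.62% without ConvR HF/HS 1. Without ConvR chow 1 and 2 together, Got1 alone was called.

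Colonization in adulthood gave another picture, with histidine enzymes higher than in mice colonized from birth. In ConvD livers relative to ConvR livers on chow, 6 members rose and 0 fell, 16.2% higher against 2.20% of all genes and 0 lower against 3.30%. The median was 0.14, and the 6 were Afmid, Agxt2l1, Gldc, Hal, Uroc1 and Amdhd1. The count was 0 without ConvR chow 1, ConvR chow 2, ConvD chow 1 or ConvD chow 2, 2 without ConvD chow 3 and 8 without ConvR chow 3. It was 0 without ConvR chow 1 and 2 together, where the median was 0.045, and 0 with only the 2 compared groups in the fit. In ConvD livers relative to GF livers, Uroc1 rose, and Agxt, Agxt2 and Oat fell, which is 2.70% of members higher against 2.25% of all genes and 8.11% lower against 3.34%. The median was -0.16. Under library totals without TMM factors, 1 was higher and 1 lower, and on log2(TPM + 1) 1 was higher and 0 lower. With a trend of expression on gene length removed, given below for Uroc1, 0 calls remained. Dropping GF chow 1 or any 1 of the 3 ConvD chow livers left 0 calls, dropping GF chow 3 left 1 and dropping GF chow 2 left 3, while the 2 compared groups alone gave 0. In ConvD relative to ConvR livers 2 of the 9 fasting and glucagon genes rose, with a median of 1.29, and 2 of the 7 periportal genes rose, with a median of 0.46. The 3 chow contrasts share livers pairwise, so their values stand side by side and do not test one another.

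The diet moved members in both directions and in shares near those of all genes. Averaged over ConvR and GF mice, Kynu, Gldc, Gpt2 and Uroc1 rose on HF/HS relative to chow, and Acmsd, Agxt, Prodh, Oat, Ivd and Gpt fell: 10.8% of members higher against 11.4% of all genes, and 16.2% lower against 13.7%. The members' median was -0.03, and turned to 0.052 without TMM factors and 0.213 on log2(TPM + 1). Of the 9 fasting and glucagon genes 5 rose in the same contrast, with a median of 0.84. Calls of Kynu, Gldc, Prodh, Ivd, Gpt2 and Uroc1 held whichever single library was left out. The count was 6 without ConvR chow 1, GF HF/HS 1 or ConvR HF/HS 2. The calls of Gldc and Gpt2 ended with ConvR chow 1 and 2 left out together, where their log2 fold changes were 0.312 and 0.265. When library totals were scaled without TMM factors, 5 were higher and 2 lower. On log2(TPM + 1), which moved the median of all genes to 0.175, 14 were higher and 0 lower. Of all genes, 26.1% were called without TMM factors and 43.9% on log2(TPM + 1), and 70.7% and 91.0% of those were higher. With the trend on gene length removed, the calls of Agxt and Gpt were lost, and 4 were higher and 4 lower. Within ConvR mice, Gldc, Gpt2 and Uroc1 rose and Prodh fell, 8.11% higher against 6.75% of all genes and 2.70% lower against 7.80%. Under library totals without TMM factors 11 were higher and 1 lower, and on log2(TPM + 1) 20 were higher and 0 lower. Of all genes, 26.2% and 54.2% were called in these 2 fits, and 84.8% and 95.9% of those were higher. The count was 2 without ConvR HF/HS 2, 8 without ConvR chow 3 and 1 with the compared groups alone, against 7.87%, 17.1% and 6.93% of all genes. Without ConvR chow 1 and 2 together, the members' median was -0.068. Within GF mice, Uroc1 rose and Oat and Ivd fell, 2.70% higher against 4.10% and 5.41% lower against 5.45%. Under library totals without TMM factors 0 were higher and 2 lower, and on log2(TPM + 1) 1 was higher and 0 lower. Of all genes, 8.69% and 6.51% were called in these 2 fits. With the trend on gene length removed, the calls of Uroc1 and Oat were lost. Without GF chow 2 the call of Ivd remained and those of Uroc1 and Oat ended, and without GF chow 1, GF chow 3 or any 1 of the GF HF/HS livers 0 of the 3 calls remained; the fit without GF chow 3 called 1 other member, as higher.

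No member's response to HF/HS was called different between ConvR and GF mice. The interaction called 0 of 37 members and 0 of 12377 genes, 0% in either direction, by edgeR, with 7 members and 1573 genes at an unadjusted p below 0.05. DESeq2 called 1 member and 0.88% of all genes. Limma on log2(TPM + 1) called 10 members and 13.1% of all genes, and 98.1% of those genes were higher. The 3 members with the smallest p, with log2 fold changes here being the HF/HS response in ConvR mice minus that in GF mice, were Gldc (log2 fold change 0.66, SE 0.17, edgeR adjusted p = 0.204), Bckdha (log2 fold change 0.41, SE 0.13, edgeR adjusted p = 0.241) and Agxt2l1 (log2 fold change 1.82, SE 0.68, edgeR adjusted p = 0.304). Without ConvR chow 3 the interaction called 5 members and 3.47% of all genes. A test of any difference among the 5 groups called 18 of 37 members, 48.6%, against 25.7% of all genes. Dropping ConvR chow 1 left 8 calls, ConvR chow 1 and 2 together 9, GF HF/HS 2 also 9, GF HF/HS 3 left 10, and ConvD chow 1 left 11. Dropping ConvR chow 2, ConvD chow 2 or ConvD chow 3 left 12, and dropping ConvR chow 3 gave 27. Of all genes, 18.0% were called without ConvR chow 1 and 31.8% without ConvR chow 3.

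**Figure D2:**
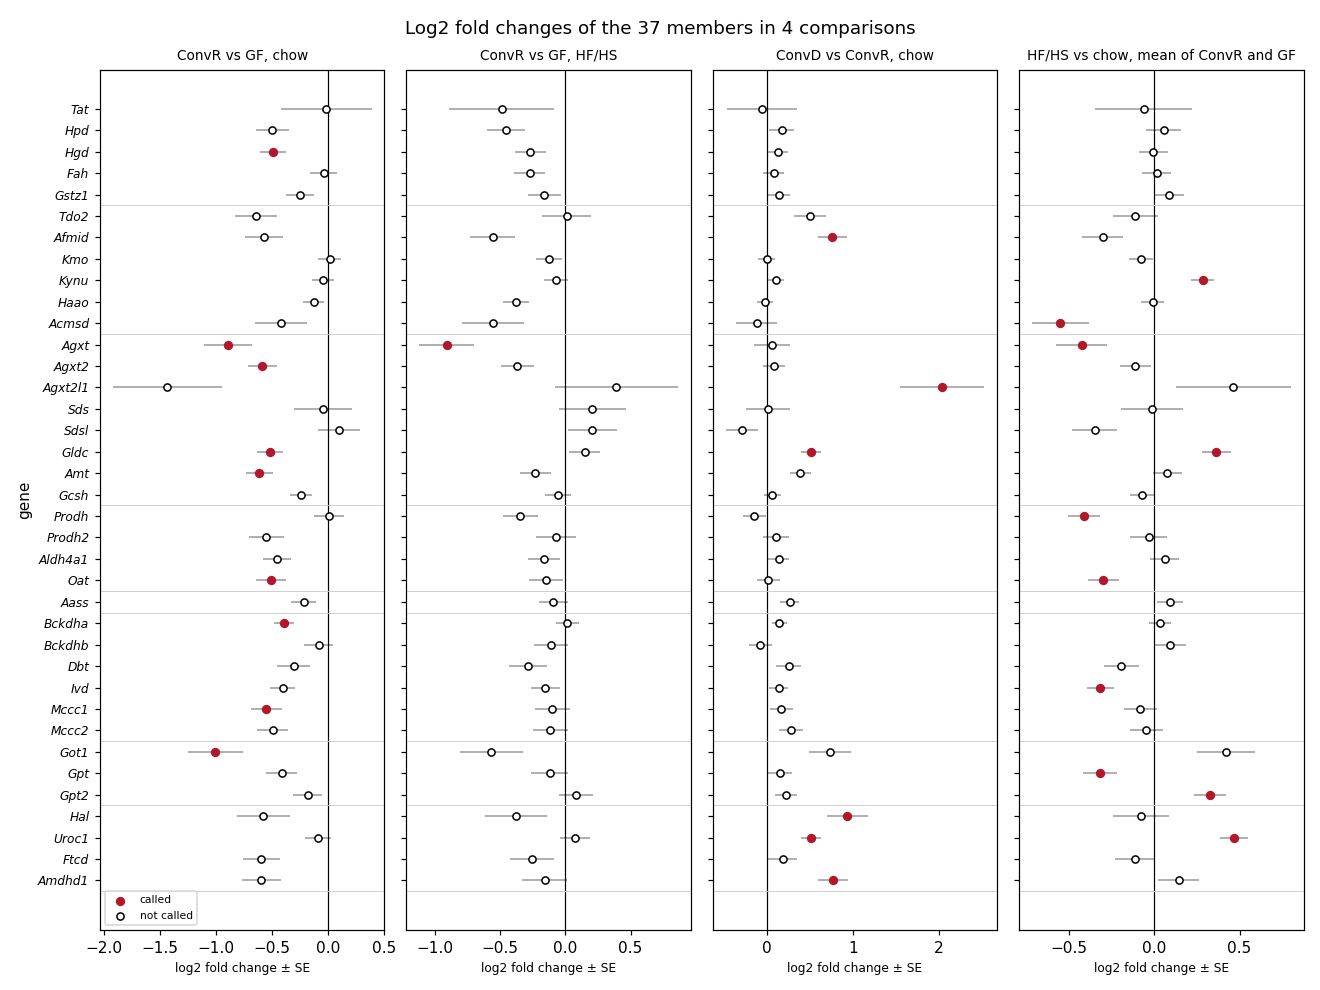
Log2 fold changes of the 37 members (rows, in sub-pathway order) in ConvR against GF livers on chow and on HF/HS, in ConvD against ConvR livers on chow, and in HF/HS against chow averaged over ConvR and GF mice. Bars are standard errors, filled points are called and open points are not. Points lie mostly left of 0 in the first panel (34 of 37), and the called points of the ConvD against ConvR panel all lie right of 0.

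Tyrosine is degraded in 5 steps, catalysed in order by Tat, Hpd, Hgd, Gstz1 and Fah, and Hpd and Hgd were the members called lower with a microbiota. Hpd, the hydroxyphenylpyruvate dioxygenase, had 1751, 1229 and 1269 CPM in ConvR HF/HS, 1751, 1995 and 2089 CPM in GF HF/HS, 1495, 1610 and 1442 CPM in ConvD chow, 1332, 1234 and 1470 CPM in ConvR chow and 1768, 1801 and 2124 CPM in GF chow livers. Its ConvR chow values lay below all GF chow values, and on HF/HS the 2 groups met at 1751 CPM. Hpd fell in ConvR livers averaged over both diets (log2 fold change -0.48, SE 0.10, edgeR adjusted p = 0.0155) and was not called on chow alone (log2 fold change -0.50, SE 0.15, edgeR adjusted p = 0.0651). Hgd, the homogentisate dioxygenase, had 628, 474 and 502 CPM in ConvR HF/HS, 601, 691 and 642 CPM in GF HF/HS, 545, 556 and 529 CPM in ConvD chow, 504, 450.2 and 539.8 CPM in ConvR chow and 729, 635 and 730 CPM in GF chow livers. The ConvR and GF ranges were apart on chow and overlapped on HF/HS, where ConvR HF/HS 1 was above GF HF/HS 1. It fell in ConvR livers on chow (log2 fold change -0.49, SE 0.12, edgeR adjusted p = 0.0351) and averaged over both diets (log2 fold change -0.38, SE 0.08, edgeR adjusted p = 0.0164).

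Tat, the transaminase that opens the pathway, was called in no comparison and varied widely within groups. It had 1810, 1454 and 1095 CPM in ConvR HF/HS, 1843, 2401 and 1880 CPM in GF HF/HS, 993, 1977 and 2187 CPM in ConvD chow, 2207, 2237 and 923 CPM in ConvR chow and 3018, 1348 and 1056 CPM in GF chow livers. The highest Tat value was in GF chow 1, the liver with the highest fasting and glucagon response sum, and the lowest was in ConvR chow 3, the liver with the lowest such sum. Within the GF chow group Tat descended with that sum, which was 8475, 2578 and 1806 CPM, and in ConvR chow livers the sum was 2803, 2387 and 828 CPM. Fah, the last enzyme, ranged from 417 to 570 CPM over the 15 livers and Gstz1, the isomerase before it, from 578 to 858 CPM, and neither was called.

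Tryptophan breakdown runs through kynurenine, and no 1 contrast called all 4 of its called genes. Afmid, the formamidase that makes kynurenine, had 76.4, 55.7 and 53.8 CPM in ConvR HF/HS, 95.7, 86.6 and 91.6 CPM in GF HF/HS, 127, 136 and 124 CPM in ConvD chow, 67.9, 63.2 and 97.9 CPM in ConvR chow and 92.2, 117 and 129.7 CPM in GF chow livers. The 3 ConvD chow livers overlapped GF chow livers and lay above all ConvR livers, while on HF/HS the ConvR values lay below the GF values. Afmid rose in ConvD relative to ConvR livers (log2 fold change 0.76, SE 0.17, edgeR adjusted p = 0.0257) and fell in ConvR relative to GF livers averaged over both diets (log2 fold change -0.56, SE 0.12, edgeR adjusted p = 0.0145). Haao, the hydroxyanthranilate dioxygenase further down, had 351, 314 and 307 CPM in ConvR HF/HS, 400.2, 446 and 419 CPM in GF HF/HS, 355, 377 and 317 CPM in ConvD chow, 336, 343 and 389 CPM in ConvR chow and 393, 368 and 405 CPM in GF chow livers. Its ConvR and GF ranges were apart on HF/HS and overlapped on chow, and it fell in ConvR livers averaged over both diets (log2 fold change -0.25, SE 0.07, edgeR adjusted p = 0.0385).

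Kynu, the kynureninase, showed a diet difference. It had 207, 189 and 206 CPM in ConvR HF/HS, 195, 227 and 212 CPM in GF HF/HS, 185, 189 and 162 CPM in ConvD chow, 168, 168 and 164 CPM in ConvR chow and 159, 165 and 191 CPM in GF chow livers. Each HF/HS group lay above the chow group of the same colonization status, by a narrow margin in GF mice, and Kynu rose on HF/HS averaged over ConvR and GF mice (log2 fold change 0.28, SE 0.07, edgeR adjusted p = 0.00755). Acmsd, the decarboxylase that draws an intermediate away from NAD synthesis, moved the other way. It had 15.5, 7.91 and 13.1 CPM in ConvR HF/HS, 17.0, 21.1 and 15.9 CPM in GF HF/HS, 19.6, 17.4 and 14.9 CPM in ConvD chow, 19.6, 23.2 and 13.6 CPM in ConvR chow and 27.1, 19.5 and 28.8 CPM in GF chow livers. The diet groups overlapped within each colonization status, and Acmsd fell on HF/HS (log2 fold change -0.55, SE 0.17, edgeR adjusted p = 0.0264). Tdo2, the dioxygenase that opens the pathway, had 1325, 1125 and 1110 CPM in ConvR HF/HS, 999, 1293 and 1249 CPM in GF HF/HS, 1417, 1427 and 1488 CPM in ConvD chow, 1023, 718 and 1335 CPM in ConvR chow and 1767, 1395 and 1624 CPM in GF chow livers. It was lowest in ConvR chow 2 and was called in no comparison (ConvR against GF livers on chow: log2 fold change -0.64, SE 0.19, edgeR adjusted p = 0.0627). Kmo, the kynurenine monooxygenase, ranged from 271 to 373 CPM and was not called.

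After Got1, the largest called fold changes between ConvR and GF livers on chow were those of Agxt, Amt and Agxt2, all of the glyoxylate, glycine and serine group. Agxt is the alanine-glyoxylate aminotransferase, which removes glyoxylate before it can form oxalate and whose loss in humans causes primary hyperoxaluria. Agxt had 218, 143 and 138 CPM in ConvR HF/HS, 311, 296 and 332 CPM in GF HF/HS, 231, 259 and 215 CPM in ConvD chow, 229, 212 and 236 CPM in ConvR chow and 585, 367 and 303 CPM in GF chow livers. ConvR livers were below GF livers without overlap on both diets, and ConvD livers overlapped ConvR livers and lay below GF livers. Agxt fell in ConvR relative to GF livers on chow (log2 fold change -0.89, SE 0.21, edgeR adjusted p = 0.0332), on HF/HS (log2 fold change -0.91, SE 0.21, edgeR adjusted p = 0.0447) and averaged over both diets (log2 fold change -0.90, SE 0.15, edgeR adjusted p = 0.00383). The call on HF/HS held in 1 of the 6 fits without 1 library. It also fell in ConvD relative to GF livers (log2 fold change -0.83, SE 0.21, edgeR adjusted p = 0.0365). On HF/HS relative to chow, Agxt fell on average (log2 fold change -0.43, SE 0.15, edgeR adjusted p = 0.0473) with overlapping ranges. That diet call held in 3 of the 12 fits without 1 library and ended with the trend on gene length removed. GF chow 1, with 585 CPM, was the highest Agxt value; without it the chow difference between ConvR and GF livers was -0.56 and was not called. With ConvR chow 1 and 2 left out that difference was -0.83 and was not called.

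Agxt2, a mitochondrial aminotransferase of glyoxylate and beta-amino acids, gave a similar order of groups. It had 132, 118 and 92.7 CPM in ConvR HF/HS, 138, 147 and 157 CPM in GF HF/HS, 116, 127 and 121 CPM in ConvD chow, 121, 94.6 and 128 CPM in ConvR chow and 175, 162 and 178 CPM in GF chow livers. GF chow livers were above all other 12 livers, and ConvR livers were below GF livers on either diet without overlap. Agxt2 fell in ConvR livers on chow (log2 fold change -0.58, SE 0.13, edgeR adjusted p = 0.0273), in ConvD relative to GF livers (log2 fold change -0.50, SE 0.13, edgeR adjusted p = 0.0372) and in ConvR livers averaged over both diets (log2 fold change -0.48, SE 0.09, edgeR adjusted p = 0.00843). Agxt2l1 was named for its likeness to Agxt2 but encodes a lyase that breaks down phosphoethanolamine. It had 131, 70.0 and 138 CPM in ConvR HF/HS, 70.6, 95.0 and 92.8 CPM in GF HF/HS, 174, 191 and 169 CPM in ConvD chow, 24.0, 14.7 and 92.0 CPM in ConvR chow and 119, 84.6 and 149 CPM in GF chow livers. The ConvD values exceeded every other value, and ConvR chow 1 and 2, the livers with the high acute phase sums, were the lowest. Agxt2l1 rose in ConvD relative to ConvR livers (log2 fold change 2.03, SE 0.49, edgeR adjusted p = 0.0332), and the log2 fold change was 0.95 and not called with ConvR chow 1 and 2 left out.

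The glycine cleavage system splits glycine in mitochondria, with Gldc as its decarboxylase, Amt as its aminomethyltransferase and Gcsh as its carrier protein. Gldc had 333, 242 and 246 CPM in ConvR HF/HS, 269, 224 and 247 CPM in GF HF/HS, 237, 249.9 and 235 CPM in ConvD chow, 163, 163 and 181 CPM in ConvR chow and 241, 226 and 258 CPM in GF chow livers. The 3 ConvR chow livers were below all other 12 livers. Gldc fell in ConvR relative to GF livers on chow (log2 fold change -0.52, SE 0.12, edgeR adjusted p = 0.0318), rose in ConvD relative to ConvR livers (log2 fold change 0.51, SE 0.12, edgeR adjusted p = 0.0303) and rose on HF/HS within ConvR mice (log2 fold change 0.70, SE 0.12, edgeR adjusted p = 0.00212). In ConvR HF/HS relative to GF HF/HS livers the ranges overlapped (log2 fold change 0.15, SE 0.12, edgeR adjusted p = 0.61). Within GF mice its log2 fold change with HF/HS was 0.03 and was not called, and averaged over both colonization states Gldc rose (log2 fold change 0.36, SE 0.08, edgeR adjusted p = 0.00686). Both diet calls of Gldc ended with ConvR chow 1 and 2 left out together. The log2 fold changes were then 0.592 within ConvR mice and 0.312 on average.

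Amt had 46.1, 36.2 and 34.9 CPM in ConvR HF/HS, 45.0, 42.8 and 49.7 CPM in GF HF/HS, 44.8, 43.7 and 38.7 CPM in ConvD chow, 30.1, 32.1 and 35.2 CPM in ConvR chow and 56.5, 44.4 and 48.0 CPM in GF chow livers. The ConvR chow livers were again the lowest group, apart from GF chow livers, and on HF/HS the ranges overlapped. Amt fell in ConvR livers on chow (log2 fold change -0.61, SE 0.12, edgeR adjusted p = 0.0194) and averaged over both diets (log2 fold change -0.42, SE 0.08, edgeR adjusted p = 0.0112). Gcsh ranged from 66.7 to 95.6 CPM and was not called. The 2 serine dehydratases were not called either. Sds had 108, 78.6 and 78.3 CPM in ConvR HF/HS, 76.9, 84.4 and 68.3 CPM in GF HF/HS, 60.1, 103 and 83.7 CPM in ConvD chow, 92.9, 91.8 and 60.6 CPM in ConvR chow and 124, 66.2 and 63.1 CPM in GF chow livers. Like Tat, it was highest in GF chow 1, at 124 CPM. Sdsl, its paralog, was also highest in GF chow 1, at 10.3 CPM, and ranged down to 5.07 CPM.

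In proline and ornithine breakdown, Prodh was called with diet, Aldh4a1 with the microbiota and Oat with both. Prodh, the proline dehydrogenase, had 146, 101 and 100.3 CPM in ConvR HF/HS, 132, 152 and 157 CPM in GF HF/HS, 154, 166 and 153 CPM in ConvD chow, 198, 161 and 164 CPM in ConvR chow and 176, 172 and 172 CPM in GF chow livers. HF/HS livers were below chow livers without overlap in both ConvR and GF mice. Prodh fell on HF/HS within ConvR mice (log2 fold change -0.59, SE 0.13, edgeR adjusted p = 0.00994) and on average (log2 fold change -0.41, SE 0.10, edgeR adjusted p = 0.00655), and was not called within GF mice (log2 fold change -0.24, SE 0.13, edgeR adjusted p = 0.283). ConvR and GF livers on chow overlapped (log2 fold change 0.01, SE 0.13, edgeR adjusted p = 0.977).

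Oat, the ornithine aminotransferase, had 947, 796 and 719 CPM in ConvR HF/HS, 798, 908 and 1022 CPM in GF HF/HS, 955, 792 and 958 CPM in ConvD chow, 953, 894 and 831 CPM in ConvR chow and 1218, 1260 and 1328 CPM in GF chow livers. GF chow livers stood above all other 12 livers. Oat fell in ConvR relative to GF livers on chow (log2 fold change -0.51, SE 0.13, edgeR adjusted p = 0.0419) and averaged over both diets (log2 fold change -0.33, SE 0.09, edgeR adjusted p = 0.0426), and in ConvD relative to GF livers (log2 fold change -0.49, SE 0.13, edgeR adjusted p = 0.0424). It also fell on HF/HS relative to chow within GF mice (log2 fold change -0.48, SE 0.13, edgeR adjusted p = 0.0345) and on average (log2 fold change -0.30, SE 0.09, edgeR adjusted p = 0.028), and the chow contrasts and the GF diet contrast share the GF chow livers. In the order given, these calls of Oat held in 1 of 6, 4 of 12, 0 of 6, 0 of 6 and 6 of 12 fits without 1 library. Aldh4a1, the pyrroline carboxylate dehydrogenase that ends proline breakdown in glutamate, had 519, 438 and 419 CPM in ConvR HF/HS, 507, 506 and 531 CPM in GF HF/HS, 417, 484 and 412 CPM in ConvD chow, 365, 362 and 469 CPM in ConvR chow and 508, 529 and 598 CPM in GF chow livers. The ConvR values were below the GF values on chow and overlapped them on HF/HS, and Aldh4a1 fell in ConvR livers averaged over both diets (log2 fold change -0.31, SE 0.09, edgeR adjusted p = 0.043). That call of Aldh4a1 held in 3 of the 12 fits without 1 library. Prodh2, which acts on hydroxyproline, ranged from 93.1 to 196 CPM, and Aass, which opens lysine breakdown, from 240.0 to 334 CPM, and neither was called.

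The branched chain keto acid dehydrogenase is built from Bckdha, Bckdhb and Dbt, and of these Bckdha was called. Bckdha had 219, 207 and 191 CPM in ConvR HF/HS, 203, 203 and 204 CPM in GF HF/HS, 195, 201 and 182 CPM in ConvD chow, 164, 169 and 191 CPM in ConvR chow and 252, 220.1 and 214 CPM in GF chow livers. ConvR chow livers were below GF chow livers, while the 2 HF/HS groups overlapped, and Bckdha fell in ConvR livers on chow (log2 fold change -0.39, SE 0.09, edgeR adjusted p = 0.0318). Bckdhb ranged from 40.8 to 59.2 CPM and Dbt from 71.8 to 125.5 CPM, and neither was called. Further along leucine breakdown, Ivd is the isovaleryl-CoA dehydrogenase. It had 165, 122 and 141 CPM in ConvR HF/HS, 162, 153 and 161 CPM in GF HF/HS, 177, 187 and 172 CPM in ConvD chow, 150.1, 150 and 189 CPM in ConvR chow and 219, 208 and 219 CPM in GF chow livers. GF chow livers were above all other 12 livers. Ivd fell on HF/HS within GF mice (log2 fold change -0.44, SE 0.11, edgeR adjusted p = 0.0272) and on average (log2 fold change -0.32, SE 0.08, edgeR adjusted p = 0.0101), and in ConvR relative to GF livers averaged over both diets (log2 fold change -0.28, SE 0.08, edgeR adjusted p = 0.0438).

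Mccc1 and Mccc2 encode the 2 subunits of methylcrotonyl-CoA carboxylase, the next step of leucine breakdown. Mccc1 had 66.4, 51.0 and 49.7 CPM in ConvR HF/HS, 58.0, 58.2 and 63.0 CPM in GF HF/HS, 57.4, 60.3 and 52.1 CPM in ConvD chow, 48.8, 42.0 and 60.6 CPM in ConvR chow and 82.0, 65.8 and 73.9 CPM in GF chow livers. Its ConvR chow values were below its GF chow values and the HF/HS groups overlapped, and Mccc1 fell in ConvR livers on chow (log2 fold change -0.55, SE 0.14, edgeR adjusted p = 0.0385). Its partner Mccc2 had 54.6, 49.3 and 67.2 CPM in ConvR chow livers and 89.1, 74.9 and 76.9 CPM in GF chow livers, without overlap, and was not called (log2 fold change -0.49, SE 0.14, edgeR adjusted p = 0.0517).

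Among the general transaminases, Got1 had the largest called fold change of the members in ConvR relative to GF livers on chow. Got1 is the cytosolic aspartate aminotransferase of the malate-aspartate shuttle. It had 184, 209.8 and 156 CPM in ConvR HF/HS, 216, 316 and 283 CPM in GF HF/HS, 179.8, 235 and 172 CPM in ConvD chow, 118, 146 and 88.7 CPM in ConvR chow and 338, 193 and 177 CPM in GF chow livers. ConvR livers were below GF livers without overlap on either diet, and ConvR chow 3 was the lowest of all. Got1 fell on chow (log2 fold change -1.004, SE 0.24, edgeR adjusted p = 0.0357) and averaged over both diets (log2 fold change -0.79, SE 0.17, edgeR adjusted p = 0.0162), and was not called on HF/HS (log2 fold change -0.57, SE 0.24, edgeR adjusted p = 0.276). Without GF chow 1, the highest liver, the chow difference was -0.64 and not called. With ConvR chow 1 and 2 left out, the averaged difference was -0.99 (edgeR adjusted p = 0.0418), and ConvR chow 3, then the lone liver of its group, was assumed to vary like the others.

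Averaged over ConvR and GF mice, the 2 alanine aminotransferases were called in opposite directions with diet, and neither call held in every fit. Gpt, the cytosolic form, had 204, 168 and 133 CPM in ConvR HF/HS, 179, 181 and 189 CPM in GF HF/HS, 208, 226 and 201 CPM in ConvD chow, 196, 156 and 219 CPM in ConvR chow and 267, 245 and 248 CPM in GF chow livers. GF chow livers were the highest group and lay apart from GF HF/HS livers, while the ConvR diet groups overlapped. Gpt fell on HF/HS on average (log2 fold change -0.32, SE 0.10, edgeR adjusted p = 0.03). The call held in 4 of the 12 fits without 1 library. It ended without TMM factors, on log2(TPM + 1), with the trend on gene length removed and with the compared groups alone. Gpt2, the mitochondrial form, had 434, 399 and 305 CPM in ConvR HF/HS, 348, 369 and 360.3 CPM in GF HF/HS, 285, 330.4 and 351 CPM in ConvD chow, 281, 247 and 301 CPM in ConvR chow and 289.5, 299 and 350.4 CPM in GF chow livers. In ConvR mice the HF/HS livers lay above the chow livers, by a small margin between ConvR HF/HS 3 and ConvR chow 3. Gpt2 rose on HF/HS within ConvR mice (log2 fold change 0.46, SE 0.13, edgeR adjusted p = 0.0328) and on average (log2 fold change 0.33, SE 0.09, edgeR adjusted p = 0.0203). The call within ConvR mice held in 2 of the 6 fits without 1 library, and the average call in all 12. With ConvR chow 1 and 2 left out together, the average log2 fold change of Gpt2 was 0.265 and its call ended. That of Gpt was -0.427 in the same fit.

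Histidine is degraded by Hal, Uroc1, Amdhd1 and Ftcd in turn, from histidine through urocanate, imidazolonepropionate and formiminoglutamate to glutamate and a folate-bound carbon unit. The first 3 rose in ConvD relative to ConvR livers and the last did not pass the test. Their promoters are shown because these 3 neighbouring steps were called higher in the same contrast. It was the only contrast that called Hal or Amdhd1, whereas Uroc1 was called in 5. The sequences are the 250 bases upstream of the RefSeq start in build GRCm38.p6, on the gene's strand, 5′ to 3′. Capitals mark matches, on either strand, to the letters TATAAA (the core promoter box), GTTAAT (a core of HNF1 sites), TGACG (a core of cyclic AMP response elements), AGAACA (a core of glucocorticoid response elements), TTGCNNCAA (a C/EBP palindrome) or CAAAGTCCA (an HNF4 repeat). Promoters of 32 of the 37 members could be matched by symbol. The upstream window of Hal is chr10:93488518-93488767 on the plus strand and that of Uroc1 is chr6:90333039-90333288 on the plus strand. The window of Amdhd1 is chr10:93540034-93540283 on the minus strand and that of Ftcd is chr10:76575398-76575647 on the plus strand.
Hal: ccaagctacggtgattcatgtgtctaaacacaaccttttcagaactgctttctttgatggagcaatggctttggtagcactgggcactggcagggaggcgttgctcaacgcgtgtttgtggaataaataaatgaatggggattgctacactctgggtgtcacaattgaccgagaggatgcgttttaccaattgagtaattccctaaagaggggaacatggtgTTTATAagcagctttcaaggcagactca
Uroc1: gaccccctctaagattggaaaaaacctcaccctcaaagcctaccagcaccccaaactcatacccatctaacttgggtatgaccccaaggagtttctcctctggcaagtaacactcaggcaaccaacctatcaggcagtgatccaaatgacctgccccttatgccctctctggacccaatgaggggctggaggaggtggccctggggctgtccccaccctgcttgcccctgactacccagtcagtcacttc
Amdhd1: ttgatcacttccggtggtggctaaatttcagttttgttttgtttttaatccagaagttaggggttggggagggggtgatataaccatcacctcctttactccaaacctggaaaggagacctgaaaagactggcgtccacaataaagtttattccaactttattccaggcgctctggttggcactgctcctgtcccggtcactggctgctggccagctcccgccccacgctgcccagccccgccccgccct
Ftcd: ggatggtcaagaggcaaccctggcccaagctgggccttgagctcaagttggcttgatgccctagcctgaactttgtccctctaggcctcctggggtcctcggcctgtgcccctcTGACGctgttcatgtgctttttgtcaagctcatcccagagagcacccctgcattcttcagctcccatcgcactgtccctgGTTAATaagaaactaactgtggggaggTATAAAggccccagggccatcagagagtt

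Hal held 1 match to the promoter box and Ftcd held 1 match each to the promoter box, the HNF1 core and the cyclic AMP core, and none of the 6 was found in these windows of Uroc1 and Amdhd1. Over 32851 promoter windows, 12.4% held the promoter box, 6.43% the HNF1 core, 17.8% the cyclic AMP core, 16.1% the glucocorticoid core, 1.74% the C/EBP palindrome and 0.384% the HNF4 repeat. The 32 members have 36 such windows, as 4 of them have 2 each, and the shares of these 36 were 16.7%, 13.9%, 11.1%, 8.33%, 2.78% and 5.56% in the same order. Hal and Amdhd1 are next to each other among the protein-coding genes of their chromosome in that annotation.

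Hal, the histidine ammonia-lyase, had 313, 131 and 239 CPM in ConvR HF/HS, 305, 276 and 307 CPM in GF HF/HS, 444, 447 and 393 CPM in ConvD chow, 215, 172 and 288 CPM in ConvR chow and 318, 345 and 341 CPM in GF chow livers. The ConvD livers were above all other 12 livers, ConvR chow livers were below GF chow livers, and ConvR HF/HS 2 was the lowest. Hal rose in ConvD relative to ConvR livers (log2 fold change 0.93, SE 0.24, edgeR adjusted p = 0.0391), and its difference between ConvD and GF livers was not called (log2 fold change 0.36, SE 0.24, edgeR adjusted p = 0.372). Amdhd1, the imidazolonepropionase, had 176, 132 and 151 CPM in ConvR HF/HS, 169, 175 and 169.8 CPM in GF HF/HS, 213, 220.3 and 176 CPM in ConvD chow, 104, 94.6 and 160.3 CPM in ConvR chow and 205, 164 and 172 CPM in GF chow livers. ConvD livers were above ConvR chow livers and overlapped GF chow livers. Amdhd1 rose in ConvD relative to ConvR livers (log2 fold change 0.77, SE 0.17, edgeR adjusted p = 0.0258). For both genes ConvR chow 1 and 2 were the lowest chow livers, and with both left out the log2 fold changes were 0.57 for Hal and 0.34 for Amdhd1 and were not called.

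Uroc1, the urocanate hydratase, was called in 5 comparisons, the same number as Agxt and Oat. It had 513, 403 and 416 CPM in ConvR HF/HS, 449, 415 and 401 CPM in GF HF/HS, 413, 486 and 398 CPM in ConvD chow, 322, 276 and 312 CPM in ConvR chow and 312, 341 and 314 CPM in GF chow livers. The 6 ConvR and GF chow livers lay between 276 and 341 CPM, below all 9 livers of the other 3 groups, which lay between 398 and 513 CPM. Uroc1 rose in ConvD livers relative to ConvR livers (log2 fold change 0.51, SE 0.11, edgeR adjusted p = 0.0244) and relative to GF livers (log2 fold change 0.42, SE 0.11, edgeR adjusted p = 0.0446). It rose on HF/HS within ConvR mice (log2 fold change 0.55, SE 0.11, edgeR adjusted p = 0.00599), within GF mice (log2 fold change 0.39, SE 0.11, edgeR adjusted p = 0.0466) and on average (log2 fold change 0.47, SE 0.08, edgeR adjusted p = 0.00112). In ConvR relative to GF livers its log2 fold change was -0.09 on chow and 0.07 on HF/HS, and neither was called. In the same 6 chow livers the rank correlation of expression with gene length ran from -0.34 to 0.02, against 0.08 to 0.28 in the other 9. In every HF/HS against chow contrast and both ConvD contrasts, 1 side came from these 6 livers and the other from the 9. With that length trend removed, the calls of Uroc1 in ConvD against GF livers and in HF/HS against chow within GF mice were lost.

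Ftcd, which transfers the formimino group to folate, had 361, 284 and 289 CPM in ConvR HF/HS, 396, 378 and 342 CPM in GF HF/HS, 332, 370 and 316 CPM in ConvD chow, 299, 221 and 379 CPM in ConvR chow and 519, 411 and 426 CPM in GF chow livers. ConvR chow livers were below GF chow livers, the HF/HS groups overlapped, and ConvD livers overlapped ConvR livers. Ftcd fell in ConvR relative to GF livers averaged over both diets (log2 fold change -0.43, SE 0.12, edgeR adjusted p = 0.0416) and was not called in ConvD relative to ConvR livers (log2 fold change 0.18, SE 0.17, edgeR adjusted p = 0.547).

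**Figure D3:**
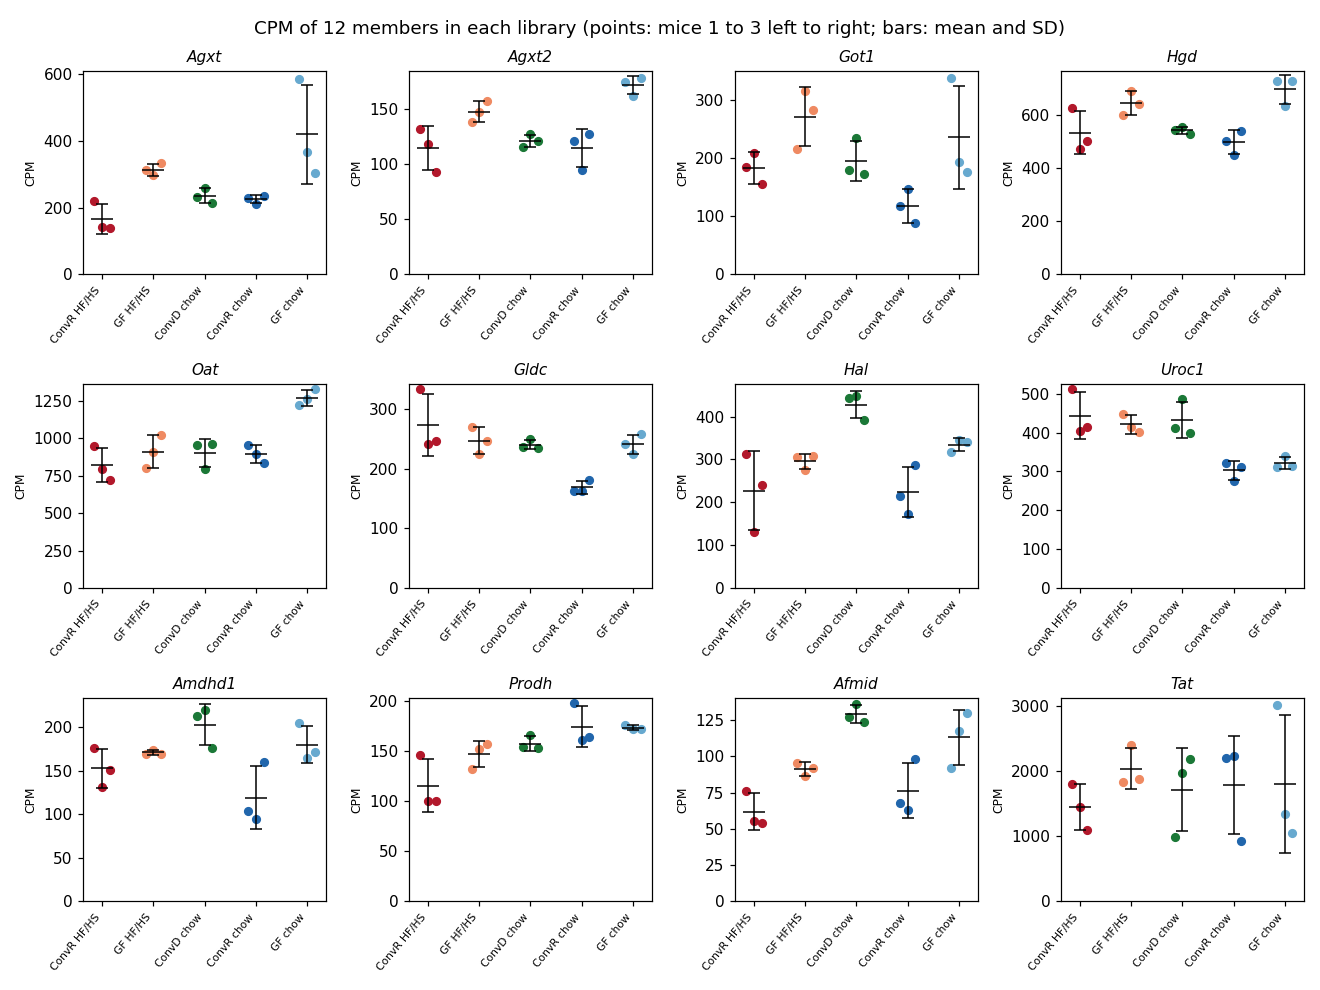
CPM of 12 members in each liver, 1 panel per gene with its own axis from 0; points are mice 1 to 3 from left to right in each group, and bars are the group mean and standard deviation (n = 3). Oat in GF chow (1218 to 1328 CPM) and Hal in ConvD chow livers (393 to 447 CPM) stand above the other groups, Gldc in ConvR chow livers (163 to 181 CPM) below them, and the 3 mice of a group are far apart for Tat.

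Set side by side, the sub-pathways differed in which group was extreme. As a mean deviation of log2(CPM + 1) from each gene's 15-liver mean, the histidine genes stood at 0.26 ± 0.13 in ConvD, -0.36 ± 0.31 in ConvR and 0.12 ± 0.06 in GF livers on chow (SD, n = 3 each). The proline and ornithine genes stood at -0.06 ± 0.04 in ConvD, -0.09 ± 0.12 in ConvR and 0.29 ± 0.06 in GF livers on chow, with the 3 GF livers above the other 6. The branched chain genes were likewise highest in GF chow livers, at 0.22 ± 0.04, against 0.01 ± 0.09 in ConvD and -0.14 ± 0.19 in ConvR chow livers. The general transaminases were lowest in ConvR chow livers, at -0.34 ± 0.03, and the 3 livers lay between -0.37 and -0.30. The genes behind this mean differed: ConvR chow 3 had -1.09 for Got1, 0.15 for Gpt and -0.12 for Gpt2. In ConvR chow 1 and 2 all 3 genes lay below their means. On HF/HS, the tyrosine genes stood at -0.14 ± 0.23 in ConvR and 0.20 ± 0.09 in GF livers, and the tryptophan genes at -0.23 ± 0.19 and 0.06 ± 0.08, in the same order. In ConvR HF/HS mice, mouse 1 lay above mice 2 and 3 in all 8 sub-pathways. These means over genes chosen together are descriptions with no test.

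**Figure D4:**
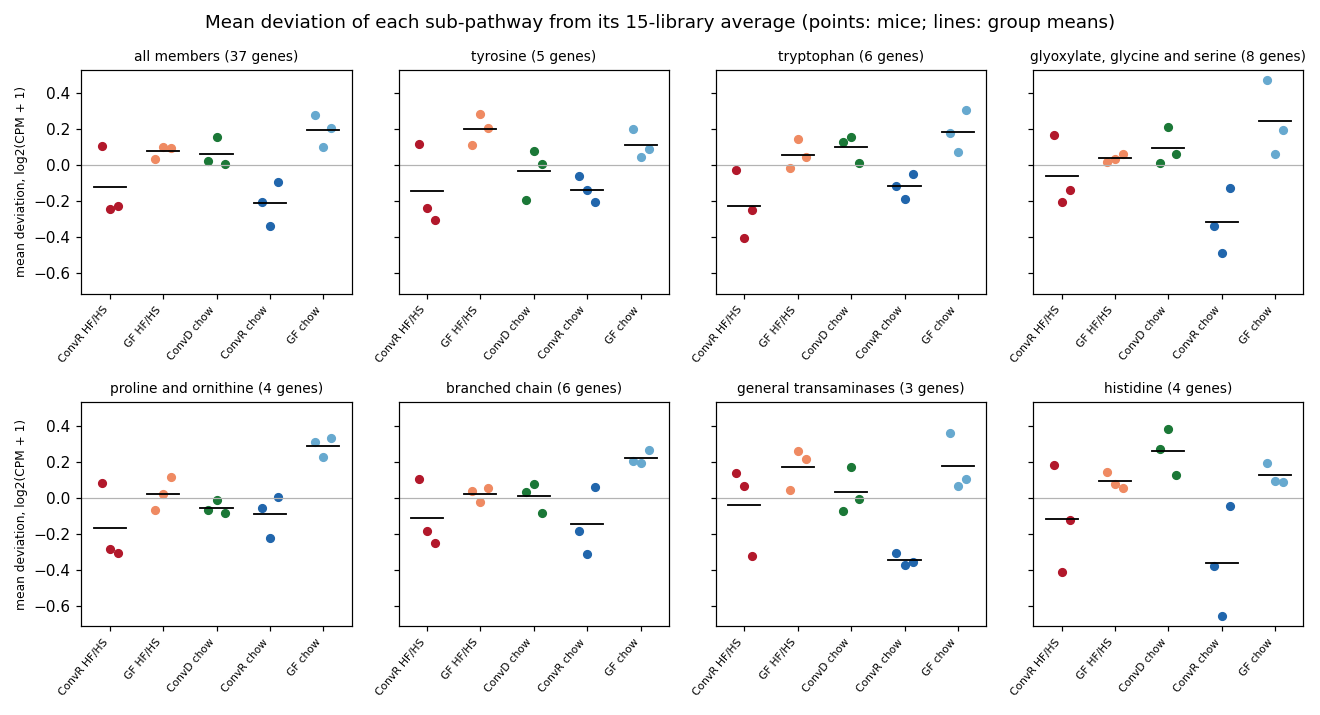
Mean deviation of log2(CPM + 1) from the 15-library average, for all 37 members and for 7 sub-pathways with more than 1 gene; points are mice and lines are group means. Histidine genes are highest in ConvD chow livers (0.26) and lowest in ConvR chow livers (-0.36), while proline and ornithine and branched chain genes are highest in GF chow livers (0.29 and 0.22).

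Other genes of amino acid breakdown that are not among the 37 were followed in a second list of 42, of which 39 were tested. In ConvR relative to GF livers, 7 of the 39 fell and 0 rose on chow, 17.9% lower against 2.17% of all genes tested and 0 higher against 2.55%, with a median log2 fold change of -0.32. Averaged over both diets 12 fell and 0 rose, 30.8% lower against 4.25% and 0 higher against 4.14%, with a median of -0.22. On HF/HS alone 2 fell and 0 rose, 5.13% lower against 0.735% and 0 higher against 0.881%. Dmgdh, which oxidises dimethylglycine from choline breakdown, was among them on chow (log2 fold change -1.13, SE 0.11, edgeR adjusted p = 0.000623), on HF/HS (log2 fold change -0.55, SE 0.11, edgeR adjusted p = 0.0297) and on average (log2 fold change -0.84, SE 0.08, edgeR adjusted p = 0.000204). Gcat, a mitochondrial enzyme of threonine breakdown, fell in ConvR livers on HF/HS (log2 fold change -0.60, SE 0.10, edgeR adjusted p = 0.0111). In ConvD relative to ConvR livers 2 of the 39, Aldh7a1 and Dmgdh, rose and 0 fell, 5.13% higher against 2.20% and 0 lower against 3.30%. With HF/HS averaged over ConvR and GF mice, 1 of the 39 rose, Pcca, and 7 fell, 2.56% higher against 11.4% and 17.9% lower against 13.7%, so that the lower share was near that of all genes.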

How the data were processed

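Polyadenylated RNA of 15 mouse livers was sequenced from stranded libraries, per the labels' protocols, and the authors used Bowtie2, RSEM 1.2.23 and build mm9, per the submitters' processing notes. The deposited expected counts are RSEM estimates per gene, not scaled between libraries. The deposited TPM values are scaled by the authors for gene length and library size. Groups and replicate numbers come from the titles. The members and gene lists were chosen with earlier results of these data known.

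The expected counts were rounded and modelled by edgeR 4.0.16 under R 4.3.3. The filter was filterByExpr (minimum count 10), the scaling was TMM, and 1 mean for each of the 5 groups left 10 residual degrees of freedom. Contrasts were tested by the two-sided quasi-likelihood F test, with Benjamini-Hochberg adjustment over all genes tested and calls at 0.05. Where libraries were left out, a lone liver was assumed to vary like those of other groups. The labels do not say that the 3 mice of a group came from separate cages, so p-values measure the spread between these mice only. The code was tested on simulated counts. Every member called in any comparison is named with its value in every library, and where a comparison called no member, the 3 with the smallest p are named; other genes named as high, low or lost were chosen after their values were seen.

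Alternatives were DESeq2 size factors, no TMM factors, no filter, a filter of 5 CPM in 3 libraries, DESeq2 1.42.0, limma 3.58.1 with voom, limma on log2(TPM + 1) for genes with a mean TPM of at least 1, the compared groups alone, a trend on gene length removed (lowess span 0.5), the replicate number as a block, each library left out, and ConvR chow 1 and 2 left out together. Same-numbered libraries did not deviate together. Promoter sequences are RefSeq's, GRCm38.p6; no other coordinates are given, as the files use mm9.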

Additional observations from a re-analysis of the deposited data

Results flagged for a closer look

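Bckdha, the alpha subunit of the branched chain keto acid dehydrogenase, lay higher in HF/HS than in chow livers of ConvR mice and lower in those of GF mice, without overlap in either; neither difference was called. It had 219, 207 and 191 CPM in ConvR HF/HS livers and 164, 169 and 191 CPM in ConvR chow livers, and 203, 203 and 204 CPM in GF HF/HS livers and 252, 220.1 and 214 CPM in GF chow livers. ConvR HF/HS 3 and ConvR chow 3 differed by less than 1 CPM. The interaction was 0.41 on the log2 scale (SE 0.13, edgeR adjusted p = 0.241) and was not called.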

How the results depend on the processing

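No called member changed direction under any alternative run. Over all members' calls, 405 of 531 values under other settings kept their call and 126 lost it, and 248 of 426 values with 1 library left out kept it and 178 lost it. DESeq2 size factors and voom left each count of called members within 1.5 times. Counts of called members moved as follows. For ConvR against GF on chow (9), DESeq2 gave 18, limma on log2(TPM + 1) gave 19, and the compared groups alone or the fit without ConvR chow 1 and 2 gave 0. For ConvD against GF (4), no TMM factors or no filter gave 2, TPM gave 1, and the length trend removed or the compared groups alone gave 0. For ConvD against ConvR (6), TPM gave 24 and the compared groups alone or the fit without ConvR chow 1 and 2 gave 0. For ConvR against GF on HF/HS (1), no TMM factors or TPM gave 0, DESeq2 gave 3, and the length trend removed or the compared groups alone gave 2. For HF/HS against chow in ConvR mice (4), no TMM factors gave 12, TPM 20, the compared groups alone 1 and the fit without ConvR chow 1 and 2 gave 0. In GF mice (3), the stricter filter or DESeq2 gave 5, and TPM or the length trend removed gave 1. The interaction (0) gave 1 with DESeq2 and 10 with TPM. HF/HS against chow on average (10) gave 6 without ConvR chow 1 and 2. ConvR against GF on average (12) gave 7 with no TMM factors, TPM or the compared groups alone, and 1 without ConvR chow 1 and 2. The test of any difference (18) gave 28 with DESeq2 and 9 without ConvR chow 1 and 2. The causes were not tested.

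With 1 library left out, the count ranged from 0 to 22 for ConvR against GF on chow, 0 to 3 for ConvD against GF, 0 to 8 for ConvD against ConvR, 0 to 3 for ConvR against GF on HF/HS, 2 to 8 for HF/HS in ConvR mice, 0 to 1 for HF/HS in GF mice, 0 to 5 for the interaction, 6 to 11 for HF/HS on average, 7 to 24 for ConvR against GF on average and 8 to 27 for any difference.

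The replicate numbers do not pair the livers: same-numbered livers of 2 groups correlated between -0.23 and 0.246 in their deviations, and 2 of 30 pairs exceeded 0.1. With the replicate number as a block, the count was 1 for ConvD against GF and 1 for HF/HS in GF mice, and 8, 6, 1, 4, 0, 10, 8 and 14 in the other comparisons in the order above.

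TPM moved the all-gene median of log2 fold changes to -0.13 for ConvR against GF on chow, 0.11 for ConvD against GF, 0.24 for ConvD against ConvR, 0.165 for ConvR against GF on HF/HS, 0.325 for HF/HS in ConvR mice, 0.30 for the interaction and 0.175 for HF/HS on average. Leaving out TMM factors moved it to 0.165, 0.19 and 0.22 for ConvR against GF on HF/HS, HF/HS in ConvR mice and the interaction. Beside these, the members' medians under TPM were -0.57, -0.02, 0.42, 0.04, 0.48, 0.54 and 0.21 in the same order. The lowest member value in any liver was 5.07 CPM, for Sdsl, and 3 livers a group limit every test.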
